A study of Mus musculus with 2 samples.

Results

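Cyp2f2-positive periportal cells are hepatocytes of the mouse liver that carry transcripts of Cyp2f2, a cytochrome P450 enzyme of drug and toxin metabolism. They were chosen here by a rule on raw counts. A cell needed at least 10 counts over all genes, a volume of at least 50 cubic µm, at least 5 counts summed over the 7 hepatocyte genes F2, Apoh, Fga, Fgb, Serpina1a, Igfbp2 and Igfbp4, and at least 1 count of Cyp2f2. The rule found 797 cells, 534 in section 1 and 263 in section 2, among 111966 segmented cells. A further 12997 cells passed the same limits with a Cyp2f2 count of 0, 4446 in section 1 and 8551 in section 2, and are called Cyp2f2-zero cells below. The rule used Cyp2f2 and the 7 hepatocyte genes, so their levels are given as a description and were not tested.

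The 2 sections were cut at 10 µm from frozen mouse liver and imaged by MERFISH, which reads single RNA molecules in place through a barcode of repeated images. The panel held 500 genes and 50 blank barcodes that match no gene. The labels place both sections in 1 group, tagged 2d and numbered as replicates 1 and 2, and give no strain, genotype, age or treatment for either. The series' design text speaks of treated mice with liver metastases, and no label ties a section to a treatment. Whether the sections came from separate animals is not stated. The p-values of the main comparisons rest on how well a difference agreed between these sections, and on a spread shared across genes. Disagreement between the sections may be technical, so no p-value below is known to cover a spread between animals. No cell name occurred in both sections.

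A liver lobule is fed with blood at the portal vein and drained at the central vein, and hepatocytes along this path do different work. Periportal hepatocytes make glucose and urea and are known in the mouse for high Cyp2f2. Pericentral hepatocytes, held in their state by Wnt signalling from the central vein, make glutamine with Glul and carry the P450 enzymes Cyp2e1 and Cyp1a2.

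Sequences upstream of Cyp2f2 and of Cyp2e1 are shown because Cyp2f2 defines these cells and Cyp2e1 was called lower in 3 of the comparisons below. Each is the stretch of 250 bases before the gene's start in RefSeq (build GRCm38.p6, + strand, 5′ to 3′). Capitals mark a match to CTTTGA, a core letter pattern bound by the TCF factors of the Wnt pathway, searched on both strands (reverse complement TCAAAG).
Cyp2f2, chr7:27119705-27119954: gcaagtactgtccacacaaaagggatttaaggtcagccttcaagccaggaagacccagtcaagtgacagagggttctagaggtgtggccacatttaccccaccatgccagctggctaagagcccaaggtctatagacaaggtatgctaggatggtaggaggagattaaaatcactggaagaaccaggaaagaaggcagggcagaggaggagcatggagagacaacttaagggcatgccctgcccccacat
Cyp2e1, chr7:140763569-140763818: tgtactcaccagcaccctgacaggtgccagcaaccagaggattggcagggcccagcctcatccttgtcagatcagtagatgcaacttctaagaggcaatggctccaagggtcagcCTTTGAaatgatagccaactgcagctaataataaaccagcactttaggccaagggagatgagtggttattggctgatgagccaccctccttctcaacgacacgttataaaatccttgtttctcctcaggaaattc
The Cyp2e1 stretch held 1 match, starting 135 bases before the gene's start, and the Cyp2f2 stretch held 0. Of 32851 promoters of the same length, 13.83% held the pattern. Of the periportal genes described below, 6 had a promoter entry and 3 of these held it, against 3 of 9 pericentral genes with an entry. CAAAGTCC, a pattern bound by the hepatocyte factor HNF4A, occurred in 1.2% of promoters and in neither stretch. These are matches of letters and show no binding. A missing match says only that these letters are not in this window.

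Cyp2f2-positive cells made up 10.7% of cells passing the limits in section 1 (95% exact binomial interval 9.88 to 11.6%) and 2.98% in section 2 (2.64 to 3.36%). The mean was 6.85% ± 5.47 (SD, n = 2), so the sections differed by far more than counting error. These intervals cover counting error only. Most of these cells held a single Cyp2f2 molecule. In section 1, 398 cells held 1 count, 95 held 2, 22 held 3 and 10 held 4, with a highest count of 9. In section 2, 243 cells held 1 count, 16 held 2 and 4 held 3. At the hepatocyte limit, 26 cells in section 1 and 46 in section 2 sat at the lowest sum allowed, 5. Just outside it, 25 and 48 cells with Cyp2f2 had a sum of 4.

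Detection of Cyp2f2 moved with the depth of a cell. In section 1 the share of Cyp2f2-positive cells was 3.36% among cells with 10 to 19 counts, 6.64% with 20 to 39, 11.98% with 40 to 79 and 18.1% with 80 or more. In section 2 it was 1.65%, 3.85%, 6.99% and, over 23 cells, 21.7%. Cyp2f2-positive cells held a median of 67 counts against 43 in Cyp2f2-zero cells in section 1, and 25 against 19 in section 2. Their median volume was 1351 against 1182 cubic µm, and 1417 against 1309. The image stain of Ttr, the hepatocyte carrier of thyroid hormone and retinol, stood at a median of 722641 signal units per unit volume against 526077 in section 1, and 197024 against 176438 in section 2. The other image signals were higher as well. DAPI stood at 673679 against 613579 and 180477 against 166217, and PolyT at 267368 against 252745 and 308982 against 304736. GFP stood at 202392 against 196705 and 102081 against 101396. Cyp2f2-positive cells were therefore deeper, larger and brighter in each of these signals, not in Ttr alone, in both sections, by their medians. The part of these differences in the gene results was not tested beyond the depth strata given below.

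For comparison Cyp2f2 was counted in cells outside the hepatocyte limit, and the blanks were counted in cells passing it. Among all cells that failed the limit, which held a median of 2 and 3 counts of the 7 hepatocyte genes and so can include hepatocytes, 3.03% held Cyp2f2 in section 1 (128 of 4229, median 16 counts per cell) and 1.93% in section 2 (144 of 7476, median 12 counts). Among such cells with at least 3 erythroid marker counts, 2.19% (17 of 778, median 28 counts) and 0.680% (2 of 294, median 17) held it. Among those with at least 3 mesenchymal marker counts, 2.66% (8 of 301, median 23) and 1.22% (4 of 328, median 16) held it. For endothelial cells the count was 0 of 56 and 0 of 21, which allows a share of up to 5.36% and 14.3% when 3 cells are taken as the limit, and up to 6.38% and 16.1% by the exact binomial interval. When every cell was thinned to 10 counts, the expected share was 2.43% and 1.33% in cells passing the hepatocyte limit, 0.681% and 0.194% in erythroid cells, and 1.54% and 0.679% in mesenchymal cells. In all cells failing the limit it was 1.81% and 1.44%. At equal depth the share in section 2 was thus no higher in cells passing the hepatocyte limit than in cells failing it, and only in section 1 was it higher. The blank detected in most cells was positive in 146 passing cells in each section, 2.93% and 1.66%, below Cyp2f2 in both. The next blank was positive in 139 and 30 cells.

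**Figure D1:**
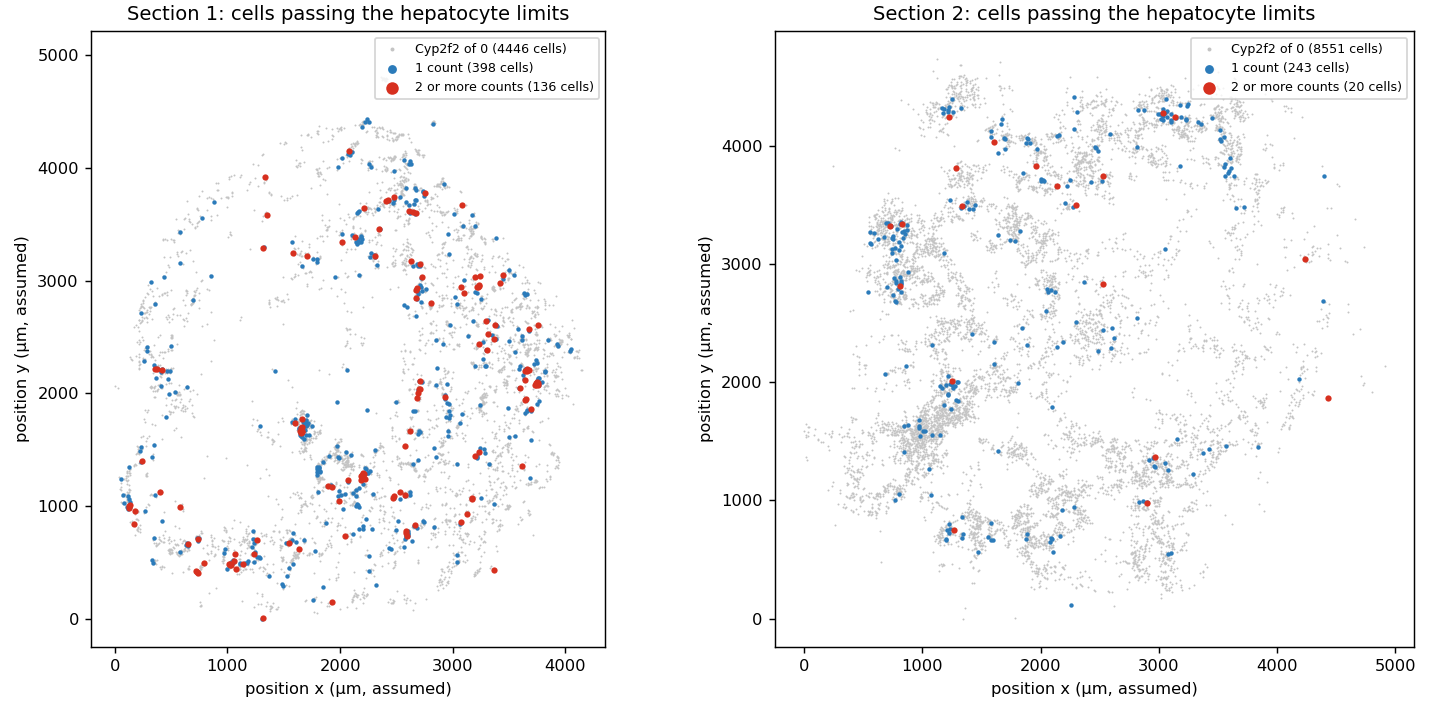
Positions of cells passing the hepatocyte limits in section 1 (left) and section 2 (right), both axes in µm as assumed for the deposited positions. Grey points are Cyp2f2-zero cells, blue points cells with 1 Cyp2f2 count and red points cells with 2 or more. Some coloured points form clumps, while 41.2% of them in section 1 and 58.6% in section 2 have no other within 30 µm.

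Cyp2f2-positive cells had a larger share of Cyp2f2-positive neighbours than Cyp2f2-zero cells did. Still, 28.3% of them in section 1 and 36.5% in section 2 had no other Cyp2f2-positive cell within 50 µm. Within 50 µm of a Cyp2f2-positive cell, 25.9% of the cells passing the limits were also Cyp2f2-positive in section 1, against 11.04% around a Cyp2f2-zero cell. In section 2 these shares were 10.998% and 3.11%. The ratio was 2.35 in section 1 and 3.54 in section 2, with a mean of 2.94 ± 0.844 (SD, n = 2). With centre cells split by depth, the ratio was 2.22, 2.40 and 2.59 in section 1, for 20 to 39, 40 to 79 and 80 or more counts. In section 2 it was 2.87, 3.19 and 3.18 for 10 to 19, 20 to 39 and 40 to 79 counts. The excess of like neighbours was thus present at each depth of the centre cell that held enough cells. The depth of the neighbours was not matched, and its part in the ratio was not tested.

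Other genes give the scale of this ratio. Its median was 1.29 over 339 genes with at least 50 positive cells in section 1 and 1.16 over 227 genes in section 2. Cyp2f2 ranked 11 of 339 and 2 of 227. The ratio scattered widely for rare genes: in section 1 a blank with 52 positive cells reached 3.99, above Cyp2f2, and 11 blanks ranged down to 0.667. In section 2 the 1 blank common enough stood at 1.03. Among genes of the lobular axis in sections 1 and 2, the ratio was 1.69 and 1.34 for Cyp2e1, 1.52 and 1.33 for Hsd17b13, 1.28 and 1.23 for Glul, and 1.24 and 1.22 for Pck1. These are descriptions of 2 sections and carry no test.

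**Figure D2:**
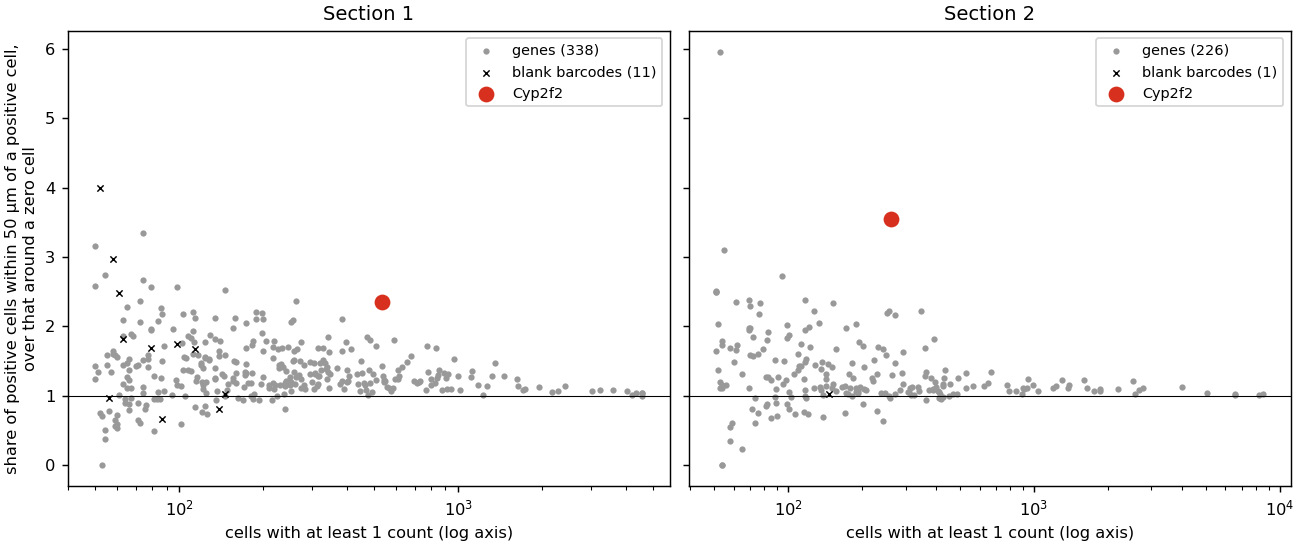
For each gene, the share of positive cells within 50 µm of a positive cell over that around a zero cell (vertical axis), against the number of positive cells (log axis), in section 1 (left) and section 2 (right). Crosses are blank barcodes and the red point is Cyp2f2, at 2.35 and 3.54, above the genes found in a like number of cells.

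Linking Cyp2f2-positive cells closer than 30 µm gave 314 groups in section 1, of which 220 were single cells and 51 were pairs. In section 2 it gave 196 groups, with 154 single cells and 28 pairs. Clumps of 5 or more cells numbered 14 in section 1 and held 116 cells, 21.7% of those chosen. In section 2, 3 such clumps held 17 cells, 6.46%. The largest clump of section 1 had 20 cells across 123 µm, and these were 36.4% of the 55 cells passing the limits within reach. Clumps of 11 cells made up 64.7% of 17 and 50% of 22 such cells. The largest of section 2 had 7 cells, 36.8% of 19. Cyp2f2-zero cells passing the limits thus lay within 30 µm of clumped cells. The shares include a rim around each clump that can hold only Cyp2f2-zero cells, since a positive cell there would have been linked. They therefore do not measure the inside of a clump.

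At a coarser scale the share varied several-fold across a section. In squares of 500 µm with at least 50 cells passing the limits, it ran from 0 to 23.9% over 40 squares of section 1, with a median of 10.9%. In section 2 it ran from 0 to 12.9% over 48 squares, with a median of 2.003%. The highest squares held 26 of 109 and 23 of 178 cells. Squares with no Cyp2f2-positive cell numbered 1 and 5.

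Cells in clumps held more Cyp2f2 than single ones in section 1. Of clumped cells 37.1% had 2 or more counts, against 18.2% of single cells, at similar median totals of 65 and 63. Cyp2e1 had 7 counts in the clumped cells, 7.85 per 10000 counts, against 58 counts, 33.0 per 10000, in single cells. Gulo, the last enzyme of vitamin C synthesis, stood at 30.3 against 60.9 per 10000, while Glul stood at 48.2 against 47.8 and Pck1 at 121 against 139. In section 2 the 17 clumped cells held 0 Cyp2e1 counts and the 154 single cells 6. The number of clumped cells there is too small to compare further.

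Of all Cyp2f2 molecules decoded, 40.2% lay in the chosen cells in section 1 and 28.6% in section 2, while 47.9% and 34.9% lay in no segmented cell. For all other genes together, 40.1% and 34.4% lay in no cell. Cyp2f2 molecules outside cells lay near the chosen cells more often than molecules of the genes compared. Of Cyp2f2 molecules outside cells but within 25 µm of a passing cell, 54.1% and 24.0% were within 25 µm of a Cyp2f2-positive cell. The same share was 27.4% and 8.25% for all other genes, 31.4% and 12.9% for Pck1, and 17.4% and 2.77% for Cyp2e1. The chosen cells were defined by Cyp2f2 and not by the genes compared. These shares are therefore unlike, and are a description with no independent support for the choice of cells.

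The first comparison asked which other genes set Cyp2f2-positive cells apart from Cyp2f2-zero cells. Cyp2e1, the pericentral P450 that oxidises ethanol, was lower, and Spp1, which encodes osteopontin and marks bile duct cells, was higher. Counts were summed per section and class, giving 4 sums with 43766 and 253410 counts in section 1 and 7559 and 187283 in section 2. Of 368 genes with at least 50 counts, 2 passed edgeR's quasi-likelihood test with section as a block (Benjamini-Hochberg adjusted p below 0.05). This is 0.543% of genes tested, with 0.272% higher and 0.272% lower.

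Cyp2e1 had 91 counts in Cyp2f2-positive and 1079 in Cyp2f2-zero cells of section 1, and 8 against 717 in section 2. This was 20.8 against 42.6 per 10000 counts, and 10.6 against 38.3. Both sections were lower, by log2 -1.03 and -1.84. The fitted change was -1.18 (SE 0.28, edgeR adjusted p = 0.00605). Thinned to 10 counts per cell, 1.82% of Cyp2f2-positive cells would hold Cyp2e1 against 3.79% in section 1, and 1.37% against 3.75% in section 2. The call was lost with DESeq2 (adjusted p = 0.621), without TMM scaling (0.16), without the block (0.999), in cells with at least 20 counts (0.776), with a hepatocyte sum of at least 10 (0.534) and with at least 2 Cyp2f2 counts (0.134). Over all alternatives the change ran from -2.30 to -1.03.

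Spp1 rested on few cells. It had 21 counts in 11 Cyp2f2-positive cells of section 1 against 24 counts among Cyp2f2-zero cells, and 3 counts in 3 cells against 13 in section 2. In the sections it stood at log2 2.16 and 2.27, and the fit gave 2.45 (SE 0.51, edgeR adjusted p = 0.000878). A single cell held 10 of the 21 counts, 47.6%. Without that cell, an alternative added after seeing the data, the change was 1.73 and the call was lost (edgeR adjusted p = 0.249). It was also lost with DESeq2, without TMM, without the block and in cells with at least 20 counts, as for Cyp2e1. Spp1 held fewer counts than the highest blank of these cells, which had 150 and 147. Of the 11 and 3 cells with Spp1, 5 and 1 also held Sox9, the duct and periportal transcription factor, and 1 and 0 held a keratin or Epcam count.

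The pericentral genes leaned one way. Of 14 tested, 13 were lower in both sections and 1, Cyp2e1, passed the test. Their median log2 change was -0.82, against -0.07 over all 368 genes, of which 156 were lower and 69 higher in both sections. Glul, glutamine synthetase, stood at 48.0 against 71.4 per 10000 in section 1 and 46.3 against 81.8 in section 2, a change of -0.66 (SE 0.27). Gulo stood at 49.4 against 74.2 and 33.1 against 54.0, a change of -0.60 (SE 0.27). Axin2, a target and inhibitor of the Wnt pathway, had 22 counts against 269 in section 1 and 0 against 120 in section 2, where 0 of 7559 counts allows up to 3.97 per 10000 against 6.41 measured in Cyp2f2-zero cells. Its change was -1.19 (SE 0.42).

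The other pericentral genes were sparser. Rnase4, a secreted ribonuclease, had 17 against 190 counts and 0 against 102, and Cyp7a1, which starts the making of bile acids from cholesterol, had 29 against 365 and 4 against 126. Their changes were -1.09 and -0.89. Lect2, Ang, Lhpp, Lgr5, Tbx3, Cyp1a2 and Oat lay between -2.16 and -0.41 with SE of 0.47 to 0.96. Gstm1, a glutathione transferase, stood the other way at 0.36 (SE 0.27). Among these genes none but Cyp2e1 passed the test with all cells at their own depth. In these cells 6 of the 14 pericentral genes lay below the most frequent blank in both sections and 4 in 1 section, as did 2 and 2 of the 10 periportal genes described next.

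**Figure D3:**
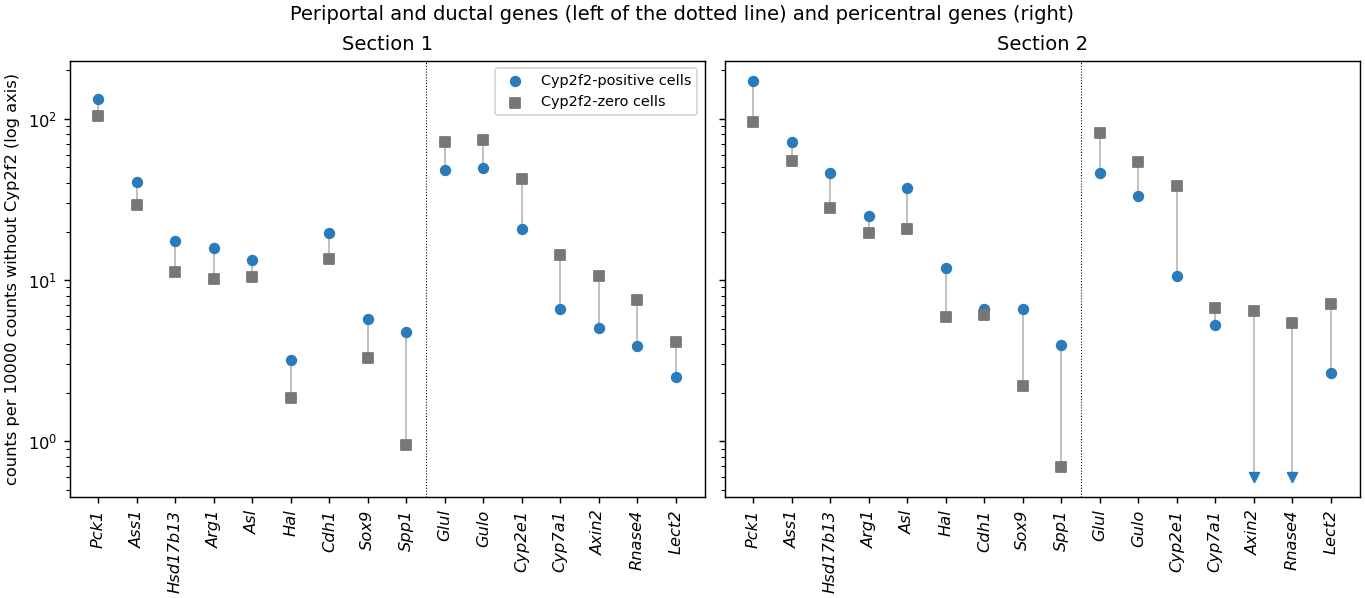
Counts per 10000 counts (log axis, Cyp2f2 left out of the total) of 16 genes in Cyp2f2-positive cells (blue circles) and Cyp2f2-zero cells (grey squares), summed over each section, with a triangle at the lower edge for a sum of 0. Levels are to be read within a gene: in both sections the blue symbol is above the grey one for all 9 genes left of the dotted line and below it for all 7 on the right. The genes shown are a selection. It leaves out the periportal G6pc and Ctsc and the pericentral Gstm1, which did not share these directions in both sections. Spp1 is shown but is on neither list.

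The periportal genes leaned the other way by less. Of 10 tested, 8 were higher in both sections and 0 passed edgeR's test, with 5 at an unadjusted p below 0.05. Their median log2 change was 0.56. Hsd17b13, a lipid droplet enzyme, stood at 17.6 against 11.2 per 10000 in section 1 and 46.3 against 27.98 in section 2, a change of 0.68 (SE 0.26). Pck1, the rate-limiting enzyme of gluconeogenesis, stood at 134 against 105 and 172 against 95.3, a change of 0.56 (SE 0.28). Cells with at least 3 Pck1 counts were 13.7% of Cyp2f2-positive against 6.39% of Cyp2f2-zero cells in section 1, and 3.42% against 0.374% in section 2, at the unequal depths given above.

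Urea cycle and amino acid enzymes made up much of this list. The changes were 0.43 (SE 0.25) for Ass1, 0.54 (SE 0.26) for Asl, 0.56 (SE 0.27) for Arg1 and 0.87 (SE 0.48) for Hal, which degrades histidine. Cdh1, E-cadherin, stood at 0.56 (SE 0.29) and Sox9 at 1.06 (SE 0.47), the latter from 25 and 5 counts. G6pc, which releases glucose from its phosphate, stood at 0.02, with 0.16 in section 1 and -0.64 in section 2. Ctsc, a lysosomal protease, was at -0.44 (SE 0.48).

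The hepatocyte genes of the rule differed less, and their values carry no test because each also decided which cells passed. The log2 difference in sections 1 and 2 was 0.23 and 0.24 for Apoh, 0.21 and 0.20 for Fgb, 0.21 and 0.10 for Fga, 0.19 and 0.04 for F2 and 0.03 and -0.03 for Igfbp4. Igfbp2, which binds insulin-like growth factors, stood at -0.18 and -0.48. Serpina1a, the α1-antitrypsin gene, was at -0.72 and -0.58, from 6 and 13 counts in Cyp2f2-positive cells. Secreted plasma proteins outside the rule, 7 tested, had a median log2 change of 0.22, with 6 higher in both sections and 0 passing the test.

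Markers of other cell types in these sums moved as well. Kupffer and macrophage markers (5 genes) took 44.6 per 10000 counts in Cyp2f2-positive against 68.8 in Cyp2f2-zero cells in section 1, and 14.6 against 29.2 in section 2. Endothelial markers (7 genes) took 48.4 against 98.4 and 22.5 against 34.2, with 1 gene, Vwf, at 0 in section 2. Erythroid markers (6 genes) took 215 against 278 and 71.4 against 75.1, and mesenchymal markers (6 genes) 94.4 against 144 and 68.8 against 60.9. Cholangiocyte markers (6 genes) took 25.8 against 16.8 and 13.2 against 7.05, with Krt19 and Krt7 at 0 in section 2. Single endothelial and macrophage genes such as Kdr, at -1.17 (SE 0.38), and Csf1r, at -0.82 (SE 0.28), did not pass the test. Cells with no count of any of these markers left 68 and 166 Cyp2f2-positive cells, in which Cyp2e1 was at -2.30 and passed the test.

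As an alternative, both classes were split by counts without Cyp2f2 into strata with edges at 20 and 40. These strata were coarser than those of total counts described above. The top stratum, from 40 counts, had no upper limit, and the difference in depth left inside a stratum was not tested. In section 1 the share of Cyp2f2-positive cells was 11.98% with 40 to 79 total counts and 18.1% with 80 or more. Depth was therefore not closely matched in the top stratum there. With these strata edgeR called 13 genes, 12 of them lower. They were Spp1 on the higher side, and on the lower side the pericentral Cyp2e1, Axin2, Glul, Cyp7a1 and Gulo, the endothelial Kdr, Bmp2, Lyve1 and Oit3, the macrophage gene Csf1r, Col1a1 and Acss1. Strata of 1 section share its tissue, so these sums are not independent replicates.

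Some Cyp2f2-positive cells held several counts of a pericentral gene. At least 3 Glul counts were seen in 14 Cyp2f2-positive cells of section 1, 2.62% against 2.74% of Cyp2f2-zero cells, and in 1 cell of section 2, 0.380% against 0.515%. At least 3 Cyp2e1 counts were seen in 9 cells (1.69% against 1.48%) and in 0 cells. These shares were compared without thinning, and Cyp2f2-positive cells were the deeper ones.

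Cells with 2 or more Cyp2f2 counts were compared with cells holding 1, to ask whether the count itself tracks other genes. There were 136 against 398 cells in section 1 and 20 against 243 in section 2, with median totals of 101.5 against 60 and 33 against 24. Of 126 genes tested 0 passed edgeR's test, 0% of them, with 9 at an unadjusted p below 0.05, and DESeq2 also called 0, with 0 unadjusted. Cyp2e1 stood at -0.83 (SE 0.62), with -0.88 in section 1 and 0.58 in section 2, and Pck1 at -0.45 (SE 0.75), with 0.24 and -0.90. For both genes the sign differed between the sections. The sum of the smaller class in section 2 was 631 counts. Other settings called 2 or 3 genes, without TMM, in cells with at least 20 counts and with a hepatocyte sum of at least 10.

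The surroundings of Cyp2f2-positive cells were read in cells that were not chosen themselves. Cyp2f2-zero cells with at least 5 passing cells within 50 µm were split by whether the share of Cyp2f2-positive cells among these was above that of the section. Where the share was above that of the section, Ass1, Arg1 and Hal, 3 of 5 urea and amino acid genes tested, were higher. Cyp2e1, Gulo, Glul and Axin2, 4 of 13 pericentral genes tested, were lower there. The classes held 1173 and 1890 cells in section 1 and 1766 and 5252 in section 2. Their median depth was 45 and 44 counts in section 1 and 22 and 19 in section 2. The median number of neighbours was 10 and 10, and 17 and 12. In section 2 the first class was thus deeper and had more neighbours. The share over section 2 was 2.98%, so at these median numbers of neighbours 1 Cyp2f2-positive neighbour was enough there to be above it. Of 324 genes tested 10 passed edgeR's quasi-likelihood test, 3.09%, with 5 higher (1.54%) and 5 lower (1.54%), and all 10 moved the same way in both sections.

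Cyp2e1 was again lower. It stood at 26.1 against 49.1 per 10000 in section 1 and 16.9 against 45.7 in section 2, a change of -1.08 (SE 0.14, edgeR adjusted p = 2.16e-05). With DESeq2 it was the only call. The other pericentral genes that fell were Gulo at -0.64 (SE 0.12), Glul at -0.56 (SE 0.11) and Axin2 at -0.89 (SE 0.22), with edgeR adjusted p from 0.00289 to 0.0282. Of 13 pericentral genes tested, 4 fell and all 13 had a negative estimate, with a median of -0.71 against 0.02 over all genes. Sord, sorbitol dehydrogenase, fell as well, by 0.40 (SE 0.11) on the log2 scale.

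Of the 10 periportal genes tested, 5 rose. Hsd17b13 stood at 12.98 against 10.1 per 10000 in section 1 and 39.4 against 23.9 in section 2, a change of 0.62 (SE 0.14, edgeR adjusted p = 0.0104). Ass1, which joins citrulline and aspartate in the urea cycle, rose by 0.43 (SE 0.11), and Arg1, which releases urea, by 0.54 (SE 0.14). Hal rose by 1.34 (SE 0.33) and Sox9 by 1.63 (SE 0.36). Pck1 stood at 0.36 (edgeR adjusted p = 0.0568), Asl at 0.39, Cdh1 at 0.26, G6pc at 0.04 and Ctsc at -0.48, and none of these passed.

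Depth limits some of these genes. The highest blank in these cells held 94 and 116 counts. Sox9, with 62 and 35 counts, and Hal, with 34 and 92, lay below it in both sections, and Axin2, with 178 and 98, in section 2. The other 7 genes lay above it in both. Blanks themselves took 48.9 against 52.0 per 10000 counts in section 1 and 23.2 against 21.1 in section 2.

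Cyp2f2-zero cells that border a chosen cell were also left out. With cells closer than 20 µm to any Cyp2f2-positive cell left out, an alternative added after seeing the data, 14 genes passed and 6 of the 10 were among them. These were Cyp2e1, Glul, Gulo, Sord, Hsd17b13 and Sox9. All 10 kept their sign in every alternative that tested them. The count fell to 0 without the section block, with a radius of 30 µm and with genes of 10 or more counts admitted, and to 1 with DESeq2.

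**Figure D4:**
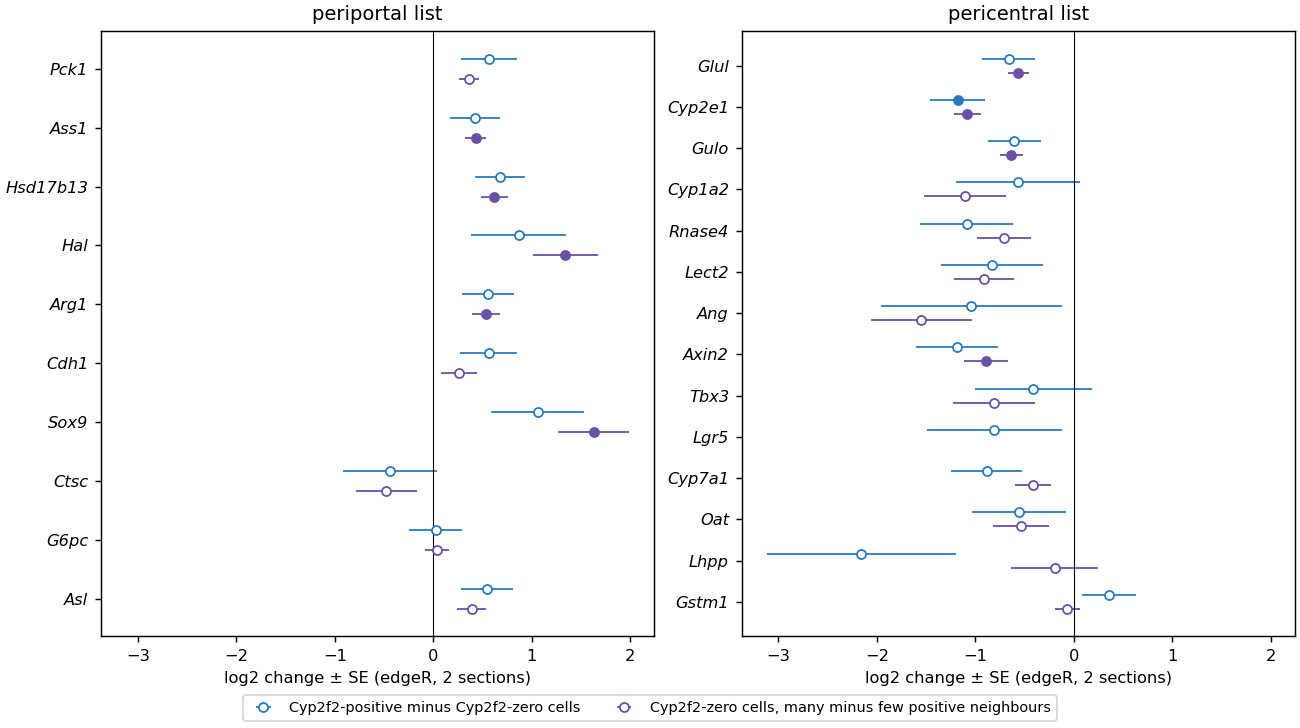
Log2 change ± SE from edgeR over 2 sections for the periportal (left) and pericentral (right) genes. Blue is Cyp2f2-positive minus Cyp2f2-zero cells, and filled points passed the adjusted threshold. Purple is Cyp2f2-zero cells whose share of Cyp2f2-positive neighbours was above that of the section, minus those at or below it. The legend calls these many and few. Both series lie mostly right of 0 on the left and left of 0 on the right.

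The same pattern was seen against distance. In section 2, Cyp2e1 in Cyp2f2-zero cells rose from 13.8 per 10000 counts within 25 µm of a Cyp2f2-positive cell through 18.8, 40.9 and 42.6 to 56.8 beyond 200 µm. In section 1 it went from 25.3 through 37.7 and 48.5 to 56.4 at 100 to 200 µm, and was 40.5 in the 277 cells beyond 200 µm. Glul went from 65.1 to 89.8 and from 58.2 to 103 between the nearest and the farthest bin. Hsd17b13 stood at 13.2, 12.7, 9.41, 11.5 and 4.77 over the bins of section 1, the last from 6 counts, and at 40.7, 39.3, 24.9, 21.9 and 25.4 in section 2. These steps are sums of cells and carry no test.

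Other genes differed between the sections in this profile. Sox9 was highest within 25 µm in both, at 6.52 and 4.76 per 10000, against 1.80 and 0.907 at 100 to 200 µm. Pck1 fell with distance in section 2, from 133 to 81.1 at 100 to 200 µm, but in section 1 it was 96.7 in the nearest and 143 in the farthest bin. Ass1 in section 1 was likewise higher in the farthest bin, 42.9, than in the nearest, 32.6. In section 2 Ass1 went from 69.3 to 43.6.

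**Figure D5:**
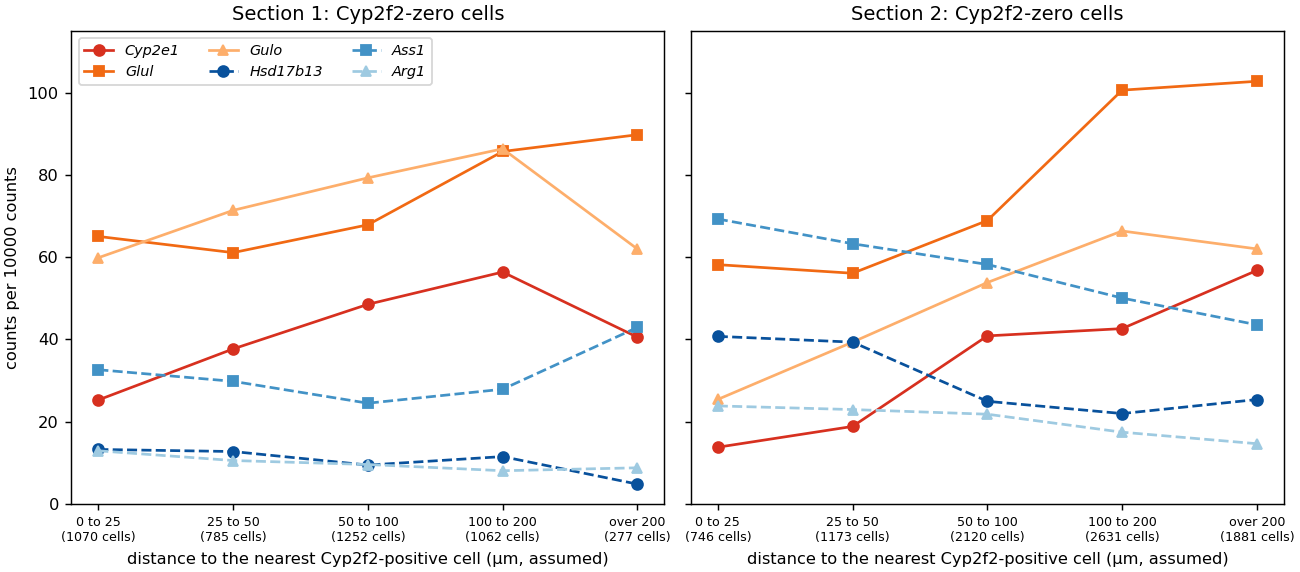
Counts per 10000 of 6 genes in Cyp2f2-zero cells by distance to the nearest Cyp2f2-positive cell (µm, assumed), in section 1 (left) and section 2 (right), with the number of cells per bin. Solid lines are pericentral genes, with Cyp2e1 going from 25.3 to 56.4 over the first 4 bins of section 1 and from 13.8 to 56.8 over all 5 of section 2, and dashed lines are periportal genes.

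Cells that failed the hepatocyte limit were split in the same way, to ask which other cells lie where the share of Cyp2f2-positive cells is above the section's. The classes held 810 and 1121 cells in section 1 and 1323 and 3673 in section 2, with median depths of 17 and 17, and 13 and 12 counts. The median number of passing cells within 50 µm was 9 and 9, and 14 and 10. Of 244 genes tested 18 passed edgeR's test, 7.38%, with 10 higher (4.1%) and 8 lower (3.28%). Sox9 rose most, by 2.05 (SE 0.34), from 17 against 7 counts and 26 against 14. The genes Cd24a, at 0.57 (SE 0.14), Mki67, at 0.40 (SE 0.11), and E2f2, at 0.45 (SE 0.12), rose too. The first 2 of these are on the erythroid list, of which 2 of 6 tested rose. All 6 had a positive estimate, but only 3 were higher in both sections. Mki67 marks dividing cells, and E2f2 drives entry into DNA synthesis.

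Pericentral genes were lower in these cells as well. Glul stood at 65.4 against 97.2 per 10000 in section 1 and 65.1 against 127.6 in section 2, a change of -0.78 (SE 0.16, edgeR adjusted p = 9.84e-05). Gulo and Cyp2e1 fell by 1.18 each (SE 0.22 and 0.27), Cyp7a1 by 1.35 (SE 0.35) and Rnase4 by 2.72 (SE 0.50). In all, 5 of 9 pericentral genes tested fell. As given above, cells failing the limit were not free of hepatocyte RNA.

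Further calls in these cells were Ccl5, a chemokine, at 1.45, Atp1b1, a sodium pump subunit, at 1.19, Tstd1 at 1.16, Acss1 at 0.89 and Arg1 at 0.79. Fcgrt, the neonatal Fc receptor, fell by 0.47, Sord by 0.63 and Oit3, a sinusoidal endothelial gene, by 0.95. Thbs1, the platelet and matrix protein thrombospondin 1, was called at 0.52 but stood at 0.997 in section 1 and -0.08 in section 2. The highest blank held 49 and 63 counts, above Sox9, Rnase4 and Cyp7a1 in both sections, Ccl5, Atp1b1 and Tstd1 in section 1 and Acss1 in section 2. The number of genes passing fell to 0 with DESeq2 (10 at an unadjusted p below 0.05), in cells with at least 20 counts (11 unadjusted), with a radius of 30 µm (9 unadjusted) and without the block (2 unadjusted).

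Distances to marked cells of other types gave the same picture in part. In section 1, 2.43% of Cyp2f2-positive cells lay within 30 µm of a cell with at least 3 Cyp2e1 counts, against 5.24% of Cyp2f2-zero cells. For cells with at least 3 Glul counts the shares were 10.49% against 10.4% in section 1 and 0.760% against 3.29% in section 2. For mesenchymal cells they were 7.12% against 7.71%, and 11.03% against 4.05%, so the sections differed. Erythroid cells lay within 30 µm of 26.8% against 23.0%, and 9.89% against 6.69%. Cyp2f2-positive cells had more passing cells around them in both sections, a median of 9 against 7 and 14 against 11, and the part of this in these shares was not tested.

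The label periportal was thus met in part. The chosen cells and their surroundings were low in Cyp2e1 by edgeR's test, and in the surroundings 5 periportal genes were higher by this test. In the cells the Cyp2e1 call was lost with DESeq2, without TMM and without the section block. In the surroundings only Cyp2e1 passed with DESeq2, and 0 genes passed without the block or with a radius of 30 µm. The directions of these calls held in every alternative that tested them. Among the 5 periportal genes, Hal and Sox9 had lower counts than the top blank of each section. Of all genes tested there, 1.54% were called higher. In the cells themselves none of the 10 periportal genes tested passed, and Cyp2f2, which was not tested, rested on 1 molecule in 74.5% and 92.4% of them.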

How the data were processed

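Per the labels, 2 frozen liver sections of 1 group were imaged by MERFISH. The authors deposited raw counts per segmented cell, cell volumes and positions (unit of length not given, µm assumed), an image signal per stain and the decoded transcripts. The decoding and segmentation software is not given in the sources used here. Blanks were left out of totals. The cells and gene lists were chosen with earlier results of these data known.

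Raw counts were summed per section and class and tested with edgeR 4.0.16 in R 4.3.3 (quasi-likelihood, TMM, section as a block, 4 sums, 1 residual degree of freedom, at least 50 counts per gene, Benjamini-Hochberg at 0.05). Cyp2f2 and the 7 hepatocyte genes were not tested, and Cyp2f2 was left out of library sizes. The block follows the section, since both sums of a section come from the same tissue. The SE was derived from the log2 change and its F statistic and is moderated across genes. A single section's log2 value is the gap between its 2 sums in log2 CPM (prior count 2). The edgeR step was also run on simulated counts that had the same spread for every gene and the same change in both sections. The real sums need not meet this, so that run does not bear on the calls given here. DESeq2 1.42.0, other count minima, radii, depth strata and scalings were alternatives. Python 3.11.15 with scipy 1.17.1 gave neighbours, exact binomial intervals and the expected shares at 10 counts per cell. Single linkage within 30 µm gave clumps. No doublet caller was run.

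Named genes were those past the adjusted threshold in the same direction in both sections, up to 15 per direction, the tested members of the periportal and pericentral lists, and the genes of the rule. Other genes, among them Spp1's cells, Kdr, Csf1r, Thbs1 and the genes called with depth strata, were chosen after their values were seen.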

Additional observations from a re-analysis of the deposited data

How the results depend on the processing

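The share of cells with Cyp2f2 was 2.98 to 10.7% and the neighbour share ratio 2.35 to 3.54 when each section was left out. Other limits or radii gave a mean share from 1.48 to 9.62% and a mean ratio from 2.25 to 3.02, and the SD over 2 sections is too wide to judge these moves. Counts of genes moved too. For Cyp2f2-positive against Cyp2f2-zero cells (2 genes), 0 passed without TMM (52 at an unadjusted p below 0.05), with DESeq2 (9), without the replicate block (3), in cells with at least 20 counts (17) and with a hepatocyte sum of at least 10 (12). In that comparison 4 genes passed with at least 200 counts per gene, 13 with depth strata, 1 in cells with no marker count of other types and 1 without the cell with most Spp1, added after seeing the data. For Cyp2f2-zero cells by neighbours (10 genes), 0 passed with at least 10 counts per gene (43 unadjusted), without the replicate block (1) and with a radius of 30 µm (24), 1 with DESeq2, 4 with a radius of 100 µm, 6 with at least 200 counts per gene and 3 with at least 10 neighbours, added after seeing the data. For cells failing the hepatocyte limit (18 genes), 0 passed with DESeq2 (10 unadjusted), at least 200 counts per gene (9), no replicate block (2), at least 20 counts per cell (11) and a radius of 30 µm (9), and 7 with a radius of 100 µm. For cells with 2 or more against 1 Cyp2f2 count (0 genes), 2 passed without TMM, 3 in cells with at least 20 counts and 3 with a hepatocyte sum of at least 10. Thbs1 in cells failing the limit reversed, to -0.0382 with a radius of 100 µm, and ran from -0.0754 without replicate 1 to 0.997 without replicate 2. The causes were not tested, except that fewer cells or genes enter the stricter settings. Leaving out a section leaves 1 sum per class, so it gives values and no test. Among single genes, 159 results lost a call, 11 gained one, 2 reversed and 695 counted as unchanged. For a gene without a call in the main fit, unchanged means only that no call was gained, and its direction was not checked. With a section left out there is no call, and a called gene counted as unchanged if its direction held. Depth is one limit of these data: Cyp2f2 itself held 748 and 287 counts, the class of 2 or more counts in section 2 held 631 counts in all. With 1 residual degree of freedom each call also leans on the spread shared across genes.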
